A study of Mus musculus with 4 samples.

Results

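Lymphoid priming is the low-level expression of lymphoid genes in haematopoietic cells that have not yet committed to the lymphoid lineage. Of the 10 genes that make up this group here (Il7r, Dntt, Satb1, Notch1, Rag1, Rag2, Tcf3, Ebf1, Ly86 and Lax1), 9 were measured in Thy1+ LSK bone marrow cells, a stem cell-rich fraction without lineage markers, sorted on Sca-1, Kit and Thy1. A member was measured where an array row carried its symbol and no other. The annotated row that lists Rag1 also lists Iftap, so Rag1 was not analysed here. The 9 members were a small part of the 22180 genes with such a row, and each had a single row.

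The arrays formed 2 groups of 2. One group came from mice without Nol3, marked MPN by the sample labels and called Nol3-/- MPN here, where MPN is taken as myeloproliferative neoplasm. The other came from Nol3+/+ mice. All animals were on the C57BL/6 background, were 11 to 18 months old and had no treatment, and the cells were sorted without culture. The labels name no promoter or Cre line for the deletion, and they do not say whether an array held RNA of 1 mouse or of a pool, so p-values measure the spread between these arrays only. The wording of the series title leaves unclear whether MPN applies to both genotypes, and the sample labels were followed.

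In early lymphoid development the cytokine receptor subunit IL-7R, encoded by Il7r, carries survival and growth signals, while Notch1 directs progenitors toward the T lineage. The E protein Tcf3 (E2A), which binds E-box sequences, and the factor Ebf1 open the B lineage programme, and the chromatin organizer Satb1 favours lymphoid over myeloid fate. Rag1 and Rag2 form the recombinase that cuts antigen receptor genes, and Dntt encodes terminal transferase, which adds untemplated bases at the joints. Dntt and Il7r transcripts are among the markers by which lymphoid-primed progenitors are told from stem cells. Ly86 (MD-1) is the secreted partner of CD180, a surface protein of B cells, and Lax1 is a membrane adaptor that dampens signalling in B and T cells.

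The sequence upstream of the transcription start is printed for a pair of members whose arrays lay higher in Nol3-/- MPN, Dntt and Satb1, and for a pair of lymphoid effector genes with signals in the lowest 25% of all genes, Il7r and Rag2. Each run holds the 250 bases before a RefSeq start in build GRCm38.p6, read 5′ to 3′ on the strand of the gene, and capitals mark every match to the E-box letters CANNTG. Dntt lies at chr19:41029025-41029274 on the plus strand, Satb1 at chr17:51833291-51833540 on the minus strand (the most upstream of its 5 listed starts), Il7r at chr15:9529877-9530126 on the minus strand and Rag2 at chr2:101624462-101624711 on the plus strand.
Dntt: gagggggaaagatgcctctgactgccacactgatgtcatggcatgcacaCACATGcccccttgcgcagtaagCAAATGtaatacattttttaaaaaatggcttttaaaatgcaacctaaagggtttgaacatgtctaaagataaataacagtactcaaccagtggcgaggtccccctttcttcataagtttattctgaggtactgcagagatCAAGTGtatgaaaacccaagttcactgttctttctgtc
Satb1: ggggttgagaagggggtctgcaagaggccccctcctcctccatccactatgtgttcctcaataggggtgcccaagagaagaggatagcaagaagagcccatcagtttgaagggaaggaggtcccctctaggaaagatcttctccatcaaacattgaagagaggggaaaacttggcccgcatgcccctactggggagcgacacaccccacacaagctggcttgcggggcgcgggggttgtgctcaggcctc
Il7r: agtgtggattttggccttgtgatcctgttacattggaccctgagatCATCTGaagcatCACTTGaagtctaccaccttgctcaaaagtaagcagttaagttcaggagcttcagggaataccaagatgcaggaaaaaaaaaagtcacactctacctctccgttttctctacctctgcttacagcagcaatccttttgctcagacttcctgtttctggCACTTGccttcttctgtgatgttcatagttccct
Rag2: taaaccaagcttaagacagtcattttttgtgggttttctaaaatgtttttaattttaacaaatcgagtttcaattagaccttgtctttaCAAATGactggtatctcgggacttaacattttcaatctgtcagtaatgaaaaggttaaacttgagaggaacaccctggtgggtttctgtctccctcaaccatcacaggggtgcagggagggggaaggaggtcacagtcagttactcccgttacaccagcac
The Dntt and Il7r windows held 3 matches each, the Rag2 window 1 and this Satb1 window 0. Searched on both strands, CANNTG occurred in 66.2% of 32851 RefSeq windows of this length, so a match sets no gene apart. Of the 16 member windows, 11 held CANNTG. Some members had several windows, and at least 1 window held it for 9 of the 10 members, the exception being Notch1. The letters CAGGTG and CAGCTG, which are forms of that E-box and overlap it, occurred in 17.2% and 13% of windows. Each was found upstream of Rag1 and of another Satb1 start, and upstream of no other member. The letters TGGGAA, the core that Ikaros binds, can share their leading bases with an E-box. They occurred in 21.6% of windows and were found upstream of Ebf1, Ly86, Rag1 and Satb1, in 4 of the 16 member windows.

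The arrays differed in more than the labelled condition. The 2 Nol3-/- MPN arrays correlated at r = 0.949 across the 16635 tested genes and the 2 Nol3+/+ arrays at r = 0.911, and Nol3+/+ replicate 1 stood apart, at 0.899 and 0.908 with the Nol3-/- MPN arrays against 0.929 and 0.945 for Nol3+/+ replicate 2. Xist averaged 10.8 in Nol3-/- MPN and 5.36 in Nol3+/+ on the log2 signal scale, and for 11 of 13 tested genes on the Y chromosome both Nol3-/- MPN arrays were below both Nol3+/+ arrays. By these signals the groups differed in sex as well as in genotype. Sex and genotype therefore cannot be told apart for any gene, autosomal genes included. The Nol3 row itself averaged 5.44 ± 0.09 in Nol3-/- MPN and 5.42 ± 0.15 in Nol3+/+ (SD, n = 2 each), and whether its probes lie in the deleted part is not given. Of the sort genes, Kit read 8.38 and 7.39 in Nol3-/- MPN and 8.07 and 8.10 in Nol3+/+, Thy1 read 4.64 and 5.24 against 4.74 and 5.02, and the Sca-1 gene Ly6a was not analysed here.

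None of the members passed the test across all genes. Dntt and Satb1 had the widest differences, at 0.62 and 0.34 log2 units higher in Nol3-/- MPN, and neither passed (limma adjusted p = 0.843 and 0.841). Of the 9 members, 6 had a mean signal above the limit for dim genes, a log2 signal of 4.835 that marks the lowest 25% of genes, and were tested, and 3 (Il7r, Rag2 and Ly86) lay below it. Of those 6, 0 had a limma adjusted p under 0.05, against 0.024% of all genes tested, and 0 had an unadjusted p under 0.05, against 5.8%. With X- and Y-linked genes left out, limma called 0 of 16009 genes at that adjusted threshold. The groups did not overlap for 6 of the 9 members. Both Nol3-/- MPN arrays lay above both Nol3+/+ arrays for 4 members, a pattern seen in 18.8% of all measured and 19.7% of tested genes. They lay below for 2 members, against 16.4% of measured and 15.9% of tested genes. After quantile normalization or median centring of the arrays the split was 5 higher and 1 lower. With counts this small and 2 arrays a group, the shares are a description. The median log2 difference of the 9 members was 0.10, against 0.00 over all measured genes. For the 9 it was 0.03 without Nol3+/+ replicate 2 and 0.15 without Nol3+/+ replicate 1. Over the 6 tested members the median was 0.17, against 0.01 over all tested genes. In an exact permutation test 2 arrays against 2 cannot give a two-sided p below 0.333, so none was used.

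**Figure D1:**
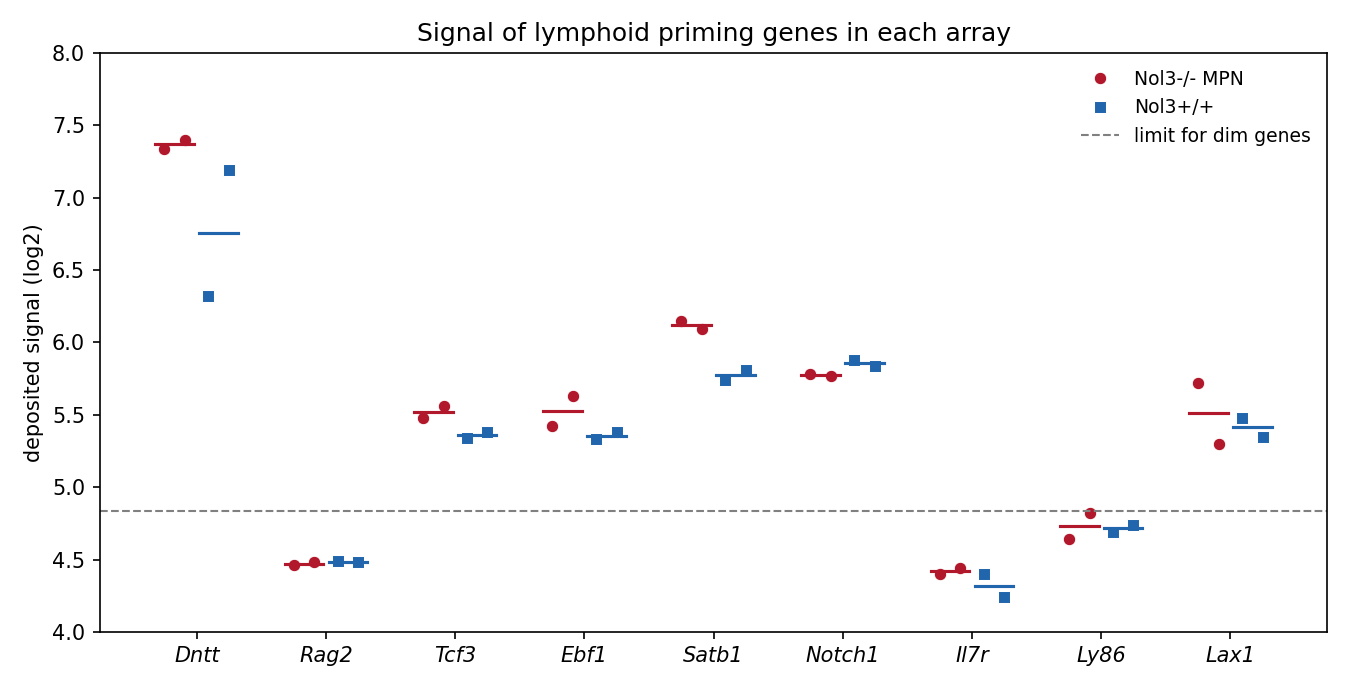
Deposited log2 signal (vertical axis) of each measured member in each array, with Nol3-/- MPN as circles, Nol3+/+ as squares, a short line at each group mean and a dashed line at the limit for dim genes of 4.835. Dntt in Nol3+/+ replicate 1, at 6.32, lies far below the other 3 Dntt values, and the Satb1 groups are separate.

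Of the recombination genes, Dntt read 7.34 and 7.40 in Nol3-/- MPN and 6.32 and 7.19 in Nol3+/+. The other 3 arrays lay close together and Nol3+/+ replicate 1 lay low. The group means were 7.37 ± 0.04 and 6.76 ± 0.61 (SD, n = 2 each), and the log2 difference of 0.62 had an SE of 0.33 and a 95% interval from -0.23 to 1.47. Measured against Nol3+/+ replicate 1 alone the Nol3-/- MPN mean lay 1.05 higher, and against Nol3+/+ replicate 2 alone 0.18 higher. The value therefore rests on Nol3+/+ replicate 1, the array that stood apart across all genes. Rag2 read 4.46 and 4.48 in Nol3-/- MPN and 4.49 and 4.48 in Nol3+/+, below the limit for dim genes in every array. Its log2 difference was -0.02 with a 95% interval from -0.28 to 0.25 (limma without the filter on dim genes, adjusted p = 0.994). Its groups were separate by less than the rounding of these values, and they overlapped once the arrays were quantile normalized or centred on their medians. Whether signals in that range lie above background was not tested, since detection calls were not used here.

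Of the transcription factors of the B lineage, Tcf3 read 5.48 and 5.56 in Nol3-/- MPN and 5.34 and 5.38 in Nol3+/+. The groups did not overlap, and the log2 difference of 0.16 carried an SE of 0.12, with -0.16 to 0.48 as its interval (limma adjusted p = 0.878). Ebf1, required for B cell specification, read 5.42 and 5.63 in Nol3-/- MPN and 5.33 and 5.38 in Nol3+/+. Its arrays were also separate, with Nol3-/- MPN replicate 1 only 0.05 above Nol3+/+ replicate 2, and the log2 difference was 0.17 (SE 0.14, interval from -0.18 to 0.52, limma adjusted p = 0.879). Without Nol3-/- MPN replicate 2 the Ebf1 difference was 0.07, and without Nol3-/- MPN replicate 1 it was 0.28.

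Satb1 read 6.15 and 6.09 in Nol3-/- MPN and 5.74 and 5.81 in Nol3+/+, so each Nol3-/- MPN array lay between 0.28 and 0.41 above each Nol3+/+ array. The arrays of a group lay within 0.06 of each other in Nol3-/- MPN and 0.07 in Nol3+/+. The log2 difference of 0.34, or 1.27-fold, carried an SE of 0.15, with -0.03 to 0.71 as its interval (limma unadjusted p = 0.0627, adjusted p = 0.841). It stayed between 0.31 and 0.38 whichever array was left out. The standard error is wider than the Satb1 spread itself because limma shrinks the spread of each gene toward that of genes of like signal. In absolute size the difference lay at percentile 84.1 of all measured genes. Notch1, the receptor that favours the T over the B lineage, read 5.78 and 5.77 in Nol3-/- MPN and 5.88 and 5.84 in Nol3+/+. Its log2 difference was -0.08 (SE 0.14, interval from -0.43 to 0.26, limma adjusted p = 0.955), and it lay between -0.10 and -0.06 with each array left out.

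Of the surface and signalling genes, Il7r read 4.40 and 4.44 in Nol3-/- MPN and 4.40 and 4.24 in Nol3+/+, below the limit for dim genes in every array. Nol3-/- MPN replicate 1 and Nol3+/+ replicate 1 had the same value, and the log2 difference was 0.10 with -0.19 to 0.40 as its interval (limma without the filter, adjusted p = 0.927). It was 0.02 without Nol3+/+ replicate 2 and 0.19 without Nol3+/+ replicate 1. Ly86 read 4.64 and 4.82 in Nol3-/- MPN and 4.69 and 4.74 in Nol3+/+. The Nol3+/+ arrays lay between the Nol3-/- MPN arrays, and the difference of 0.01 had -0.30 to 0.32 as its interval (limma without the filter, adjusted p = 0.997). It lay between -0.08 and 0.10 with each array left out. Lax1 read 5.72 and 5.30 in Nol3-/- MPN and 5.48 and 5.35 in Nol3+/+. Here too the Nol3+/+ arrays lay between the Nol3-/- MPN arrays, and the difference was 0.09 (SE 0.18, interval from -0.37 to 0.56, limma adjusted p = 0.958). Without Nol3-/- MPN replicate 1 it was -0.11.

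**Figure D2:**
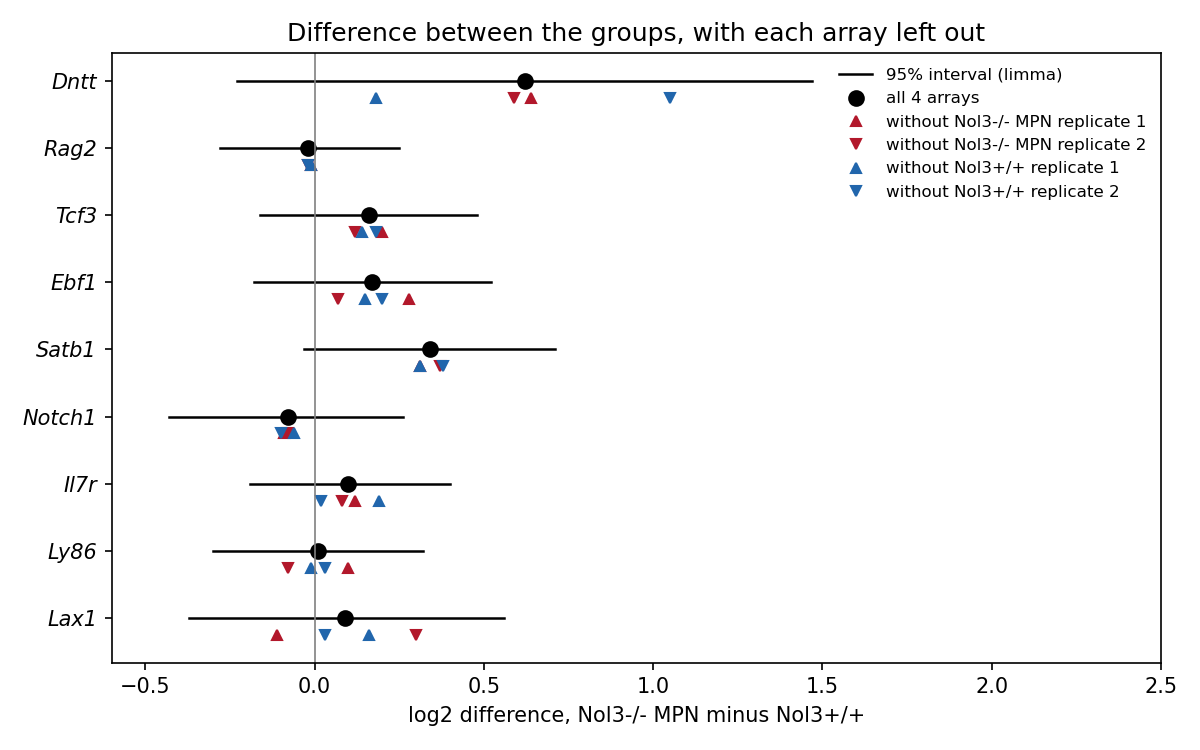
Log2 difference (Nol3-/- MPN minus Nol3+/+, horizontal axis) of each measured member over all 4 arrays (black circles), with limma's 95% interval (lines) and the difference with each array left out (triangles below). Every interval includes 0. Dntt moves between 0.18 and 1.05 depending on which Nol3+/+ array is left out, while Satb1 stays between 0.31 and 0.38.

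Around the members, 7 lists of related genes held 85 names, of which 78 were measured. Of these, 69 lay above the limit for dim genes and were tested. Limma passed 0 of the 69 at an adjusted p under 0.05, against 0.024% of all genes tested. An unadjusted p under 0.05 was found for 2, against 5.8% of all genes tested. The 2 were Xrcc6 and Cd79b, both with higher values in Nol3-/- MPN. The lists were chosen for the pathways of the members. The groups did not overlap for 25 of the 78, with 14 higher and 11 lower in Nol3-/- MPN, shares close to those of all genes, and the median log2 difference was 0.02. Over all measured genes 18.8% lay higher and 16.4% lower without overlap, and the counts of each list below are to be read beside these shares.

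Among 16 further lymphoid transcription factors the median log2 difference was 0.02, and both Nol3-/- MPN arrays lay above both Nol3+/+ arrays for 3 and below them for 2. Tcf12, the E protein HEB that pairs with Tcf3, read 6.47 and 6.87 in Nol3-/- MPN and 6.12 and 6.24 in Nol3+/+ (log2 difference 0.49, limma adjusted p = 0.841). Tcf4, another E protein, singled out with Id3 after their values were seen, read 6.53 and 6.53 against 6.38 and 6.23 (0.23, limma adjusted p = 0.878). Id2, which binds E proteins and keeps them off DNA, read 4.73 and 5.04 in Nol3-/- MPN and 5.18 and 5.75 in Nol3+/+ (-0.58, limma adjusted p = 0.841), while Id3, of the same family, overlapped between the groups (0.06). Bcl11a, a factor needed for lymphoid progenitors, read 6.24 and 6.91 in Nol3-/- MPN and 7.07 and 7.19 in Nol3+/+ (-0.55, limma adjusted p = 0.841). Ikzf1, which encodes Ikaros, read 6.99 and 5.74 in Nol3-/- MPN and 5.64 and 6.49 in Nol3+/+, with wide overlap.

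In the signalling chain of IL-7R and of FLT3, a receptor of lymphoid-primed progenitors, both Nol3-/- MPN arrays lay above both Nol3+/+ arrays for 2 of 8 measured genes and below for 1, and the median difference was 0.00. Flt3 read 7.44 and 6.21 in Nol3-/- MPN, which spans the 6.84 and 6.70 of Nol3+/+. Stat5a, a transcription factor activated by IL-7, read 6.70 and 6.43 in Nol3-/- MPN and 6.30 and 5.99 in Nol3+/+ (log2 difference 0.41, limma adjusted p = 0.841). Bcl2, a survival gene downstream of that receptor, differed by 0.48 (limma adjusted p = 0.863), and read 9.20 and 9.16 in Nol3-/- MPN and 8.29 and 9.10 in Nol3+/+, again with Nol3+/+ replicate 1 low. Crlf2, the receptor subunit for TSLP that pairs with IL-7R, differed by -0.24 (limma adjusted p = 0.841).

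The 13 measured Notch pathway genes had a median difference of -0.09, against 0.00 over all measured genes. Both Nol3-/- MPN arrays lay above both Nol3+/+ arrays for 0 of them and below for 2, against 18.8% and 16.4% of all measured genes. The 2 were Nrarp, a feedback target of Notch, at -0.26 (limma adjusted p = 0.841), and Lfng, which modifies Notch receptors with sugar, at -0.15 (limma adjusted p = 0.895). The target gene Hes1 differed by -0.02 and Rbpj, which encodes the DNA-binding partner of Notch, by -0.16. Adam10, a protease that cleaves Notch, read 9.23 and 8.51 in Nol3-/- MPN and 6.45 and 8.86 in Nol3+/+, so its difference of 1.22 rests on Nol3+/+ replicate 1 (limma adjusted p = 0.863).

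The factors that join broken ends after recombinase cleavage had 10 measured genes, 2 without overlap upward and 1 downward in Nol3-/- MPN, with a median of 0.07. Xrcc6, which encodes the Ku70 end-binding protein, read 7.13 and 6.85 in Nol3-/- MPN and 6.16 and 5.73 in Nol3+/+ (log2 difference 1.04, SE 0.23, limma unadjusted p = 0.00625, adjusted p = 0.841). It differed by 0.82 to 1.25 with each array left out, whereas Xrcc5, which encodes its partner Ku80, differed by 0.01. Prkdc, the DNA-dependent kinase that Ku recruits, differed by 0.45 and the ligase cofactor gene Xrcc4 by -0.36 (limma adjusted p = 0.843 and 0.841).

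Of 13 early B lineage genes, 4 were without overlap higher in Nol3-/- MPN and 2 lower, with a median of 0.06. Cd79b, a signalling chain of the pre-B cell receptor, read 6.33 and 6.38 in Nol3-/- MPN and 5.85 and 5.86 in Nol3+/+ (log2 difference 0.50, SE 0.15, limma unadjusted p = 0.0205, adjusted p = 0.841). Btk, the kinase downstream of that receptor, lies on the X chromosome and differed by 0.53 (limma adjusted p = 0.841). Igll1, a surrogate light chain gene, differed by 0.19 (limma adjusted p = 0.869). Lef1, a factor shared by early B and T cells, differed by -0.33 (limma adjusted p = 0.857). Vpreb1, the other part of the surrogate light chain, read 4.26 and 4.45 in Nol3-/- MPN and 4.65 and 4.50 in Nol3+/+, below the limit for dim genes. Of 10 early T lineage genes, 2 were without overlap higher and 2 lower, with a median of -0.01. Ccr9, a homing receptor for the thymus, differed by 0.41, Ptcra, the pre-T cell receptor alpha chain, by -0.66 and the T lineage factor genes Bcl11b and Gata3 by 0.05 and -0.18. Ptcra read 5.63 and 5.72 in Nol3-/- MPN and 6.73 and 5.95 in Nol3+/+. Of 8 partners and relatives of Ly86 and Lax1, 1 lay higher and 1 lower, with a median of 0.04. Cd180, which encodes the surface protein that Ly86 binds, differed by -0.11, Lat2, an adaptor of the same kind as Lax1, by 0.17, and Pag1, another such adaptor, by 0.21 (limma adjusted p = 0.847). Grb2, an adaptor that Lax1 binds, differed by 0.36 (limma adjusted p = 0.887). Ly96, a relative of Ly86 named after its values were seen, read 4.15 and 4.16 in Nol3-/- MPN and 6.53 and 4.25 in Nol3+/+, with its mean below the limit for dim genes.

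**Figure D3:**
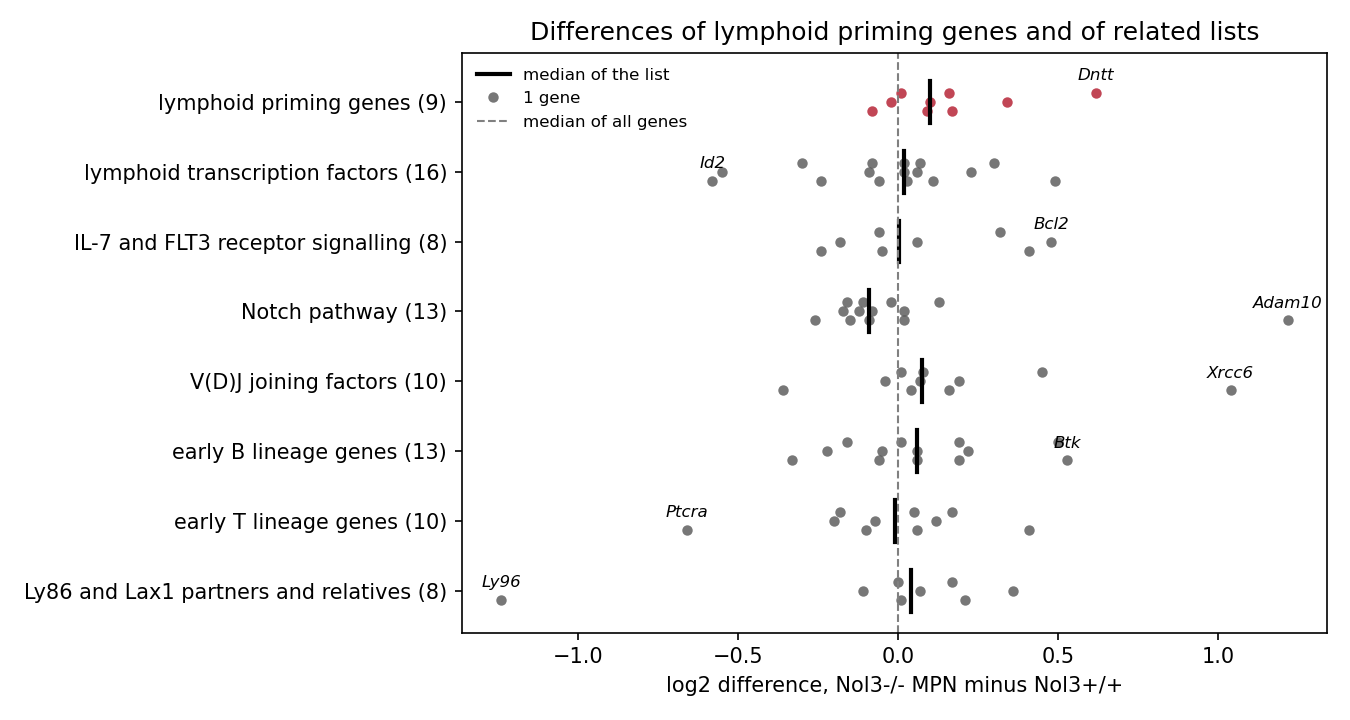
Log2 difference (Nol3-/- MPN minus Nol3+/+, horizontal axis) of each measured gene of the lymphoid priming group and of 7 related lists, with the number measured in brackets, the median of each list (bar) and the median of all measured genes (dashed line). The list medians lie between -0.09 and 0.10, and the gene farthest from 0 in each list is named.

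Markers of other cells that a sort of this kind could hold were read beside these values. Over all measured genes 18.8% were without overlap higher in Nol3-/- MPN and 16.4% lower, and counts in marker lists this small are a description. Of 6 mature B cell markers 0 were without overlap higher in Nol3-/- MPN and 2 lower, and their summed signal (log2 of the sum of linear signals) was 7.90 and 8.06 in Nol3-/- MPN and 8.20 and 8.06 in Nol3+/+. The antigen presentation gene H2-Aa was 1 of these, at -0.89 (limma unadjusted p = 0.0256, adjusted p = 0.841). The defining B cell gene Ms4a1 lay below the limit for dim genes. Of 8 mature T and NK cell markers 3 lay higher and 2 lower, with summed signals of 8.73 and 8.80 in Nol3-/- MPN and 8.78 and 8.86 in Nol3+/+. Of 5 plasmacytoid dendritic cell markers 1 (Ccr9) was without overlap higher and 2 lower, among them Irf8 at -1.83 (limma adjusted p = 0.696). Their summed signal was 8.41 and 8.34 in Nol3-/- MPN and 8.99 and 8.94 in Nol3+/+. Without Irf8, an alternative chosen after seeing the data, it was 7.99 and 8.10 in Nol3-/- MPN and 7.99 and 8.13 in Nol3+/+, where the groups overlapped. Of 10 monocyte and granulocyte markers 2 were without overlap higher and 3 lower, with summed signals of 10.04 and 10.02 in Nol3-/- MPN and 10.14 and 10.67 in Nol3+/+. The calprotectin genes S100a8 and S100a9 stood at -0.86 and -0.83, the granulocyte gene Ly6g, below the limit for dim genes, at 0.83, and the macrophage gene Adgre1 at 0.37. Their unadjusted limma p-values were 0.045, 0.0217, 0.00538 and 0.038, with adjusted values of 0.841, 0.841, 0.881 and 0.841. Of 4 measured erythroid markers 0 were without overlap in either direction, with summed signals of 7.86 and 7.99 in Nol3-/- MPN and 7.96 and 7.89 in Nol3+/+. Of 8 measured LSK and stem cell markers 2 were without overlap higher and 2 lower, with a median difference of 0.00. Cd48, found on multipotent progenitors, read 8.99 and 8.01 in Nol3-/- MPN and 6.42 and 7.76 in Nol3+/+ (log2 difference 1.41, limma adjusted p = 0.841). Hlf, a stem cell factor, read 5.37 and 5.50 against 6.44 and 6.09 (log2 difference -0.83, limma unadjusted p = 0.0051, adjusted p = 0.841). In the same list Mecom stood at 0.31, Procr at -0.27, and Cd34 and Slamf1 at 0.00. The part of these cells in the Dntt, Satb1 and Cd79b values was not tested, and in bulk RNA more or fewer cells of a type and more or less RNA per cell cannot be told apart.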

How the data were processed

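Whole-transcript Affymetrix arrays measured amplified, biotin-labelled RNA of Thy1+ LSK cells, per the labels' protocols. The authors deposited a single normalized table of 41345 rows, treated here as log2 signals from its range of 2.84 to 13.5 and array medians of 5.35 to 5.39, since no log base is stated. Per the submitters' processing notes, the software was Affymetrix Expression Console with Transcriptome Analysis Console. Software versions, background correction and normalization method were not given in the sources used here. Detection calls were not used here. Separately, the 2 arrays of each group limit the precision.

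Of the rows, 23521 had 1 gene symbol in the platform annotation, 1814 had several and 16010 had none. They gave 22180 genes, each taken from its row with the highest mean. Genes with a mean under the 25th percentile were left out, which left 16635. Group differences were tested with limma 3.58.1 under R 4.3.3 (lmFit, eBayes with a variance trend, 2 residual and 3.19 prior degrees of freedom), with Benjamini-Hochberg adjustment over all genes tested and a threshold of 0.05. The script was tested on simulated data. Chromosomes and upstream sequences came from RefSeq tables of GRCm38.p6, which held sequences for all 10 members. Named genes were the members, the leading genes of each related list as written and those of smallest p, with others said to be chosen after their values were seen. In the LSK and stem cell list, Procr, Cd34 and Slamf1 were named outside this rule. The members and lists were chosen with earlier results of these data known. Replicate numbers carry no stated pairing. Alternatives covered the replicate block, each array left out, the variance model, scaling, the filter, the row of a gene and sex-linked genes.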

Additional observations from a re-analysis of the deposited data

How the results depend on the processing

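The count of members called stayed at 0 under each of 12 alternatives, and so did the count of related genes called, for which the alternatives were chosen after seeing the data. With the replicate number as a block limma called 0 genes over all genes, against 4 without it, and 0 members. The deviations of same-numbered arrays correlated at 0.0485 across genes, so the numbers were not used as pairs. With X- and Y-linked genes left out limma also called 0 genes over all genes (898 at an unadjusted p under 0.05). With 1 array left out that count lay between 0 and 39, being 18 without Nol3+/+ replicate 1, 39 without Nol3+/+ replicate 2 and 0 without either Nol3-/- MPN array, where the lone array of a group is assumed to vary like the others. The number of members whose groups did not overlap was then 6 to 9 of 9, beside 64 to 72.8% of all measured genes (35.2% with all arrays), and the members' median difference 0.03 to 0.15, with 0.15 without Nol3+/+ replicate 1 and 0.03 without Nol3+/+ replicate 2. Quantile normalization or median centring gave 6 members without overlap, 5 higher and 1 lower, since Il7r then lay higher and Rag2 overlapped. Of the single members, Dntt reached an unadjusted p of 0.00869 without Nol3+/+ replicate 2 and 0.517 without Nol3+/+ replicate 1 (limma adjusted p from 0.279 to 1 over its alternatives). Lax1 lay between -0.11 (without Nol3-/- MPN replicate 1) and 0.30 (without Nol3-/- MPN replicate 2), and Ly86 changed sign in 2 alternatives. The other members kept their direction under all alternatives run. Signals below the limit for dim genes, as for Il7r, Rag2 and Ly86, limit what can be read from those rows.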
